A study of Mus musculus with 8 samples.

Results

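Interferon-stimulated genes are the genes that cells switch on when interferon binds its receptor, and they were followed here in sorted bone marrow macrophages of mice with and without myeloma. The set is a list of 39 gene symbols chosen by name and not by a rule on measured values, although earlier results of these data were known. All 39 were present among the 47643 gene identifiers of the macrophage table and among the 52458 entries of the plasma cell table, and all 39 passed the filter on low counts that left 15522 genes for testing. Every sample carried the genotype WT and the strain B6, with no treatment. The myeloma was Vk*MYC, a plasma cell tumour of mice whose cells carry green fluorescent protein (GFP), enriched by the plasma cell marker CD138 and placed into the tibia. Tumour-associated macrophages (TAM), gated as F4/80 high and CD11b low, were split by GFP, with GFP+ TAM taken as in contact with myeloma cells and GFP- TAM as not (2 libraries each, labelled mouse 1 and mouse 2). Macrophages of naive mice, which carried no tumour, gave 2 further libraries, and 2 libraries held sorted plasma cells without a label telling Vk*MYC myeloma from polyclonal cells of naive mice. Contact is defined by the GFP signal of the sorted macrophage alone. Nothing in the labels says that the naive libraries came from separate animals, so the p-values measure the spread between these libraries, part of which may be technical.

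The macrophage libraries held 28887725 to 46873056 gene counts, and levels are given as CPM, counts scaled to the library total. Values of a pair are given in the order mouse 1 and mouse 2 for TAM, and replicate 1 and replicate 2 for naive macrophages. Of 13 macrophage marker genes, 13 were detected in every macrophage library. Their summed level was 24532 and 14859 CPM in GFP- TAM, 6462 and 6302 CPM in GFP+ TAM and 26292.5 and 13290.3 CPM in naive macrophages. The median log2 difference of mouse 2 from mouse 1 over these markers was -1.09 in GFP- TAM and -0.86 in GFP+ TAM. Over all genes tested this median was 0.01 in both groups. The markers were split, with Mrc1, Vcam1, Cd163 and Spic higher in mouse 2 within GFP- TAM and the rest lower. Within GFP+ TAM, Csf1r, Cd68 and Adgre1 were higher in mouse 2 and the rest lower. The naive sum was also lower in replicate 2. In 0 of the 13 were both mouse 1 libraries above the other 4 (7.4% of all genes). This count cannot show whether the markers share a mouse pattern, because most were lower in GFP+ TAM than in naive macrophages. The log2 fold change of GFP+ TAM over naive was positive for 1 of the 13. Adgre1, which encodes F4/80, ranged from 519 to 1223 CPM. The library of GFP- TAM from mouse 2 stood apart in immunoglobulin counts, with 9.13% of its total against 0.166% to 0.632% in the other 5. The library of GFP+ TAM from mouse 2 held 88.4 CPM of the Y-linked gene Ddx3y and 0 CPM of Xist, the RNA that silences an X chromosome in females, while the other 5 held 17.5 to 53.8 CPM of Xist and at most 0.258 CPM of Ddx3y. Both libraries labelled mouse 2 therefore differed in sex-linked transcripts, and the mouse number is used below as a label and not as proof of a shared animal.

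Type I interferons bind the receptor pair IFNAR1 and IFNAR2, which signals through the kinases JAK1 and TYK2. STAT2 and IRF9 are parts of the complex ISGF3, which binds the interferon-stimulated response element (ISRE) in promoters. Interferon gamma has its own receptor and acts on genes with gamma-activated sites (GAS). The products sense viral RNA and DNA, block translation and budding of viruses, attack vacuoles of intracellular pathogens and, in the case of USP18 and IRF7, damp or amplify the pathway itself. Macrophages are both producers of interferon and strong responders to it.

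Promoter windows from RefSeq (GRCm38.p6, 250 bases before to 50 after a transcript start) were at hand for 28 of the 39 genes. The ISRE core, which is GAAA, any 2 bases and GAAA again, searched on both strands, was present in 19 of these 28 (67.9%), against 3.99% of the 27025 genes with a window of the same length. The GAS letters TTCNNNGAA, which read alike on both strands, were present in 8 of 28 (28.6%), against 9.55% of all genes. In 9 windows, among them those of Irf7, Irf9, Ifit2 and Oasl1, the ISRE core letters were not found. The 6 sequences that follow are shown because they hold the core in tandem or as spaced copies near the start, and because Ifit3 and Ifit3b, near-identical neighbours, can be compared base by base. Each is upstream sequence read 5′ to 3′ along the gene's strand, with matches to the ISRE core of either strand in capitals, and each lies upstream of the RefSeq start, outside the transcript.
Isg15 (chr4:156200819-156201018, minus strand): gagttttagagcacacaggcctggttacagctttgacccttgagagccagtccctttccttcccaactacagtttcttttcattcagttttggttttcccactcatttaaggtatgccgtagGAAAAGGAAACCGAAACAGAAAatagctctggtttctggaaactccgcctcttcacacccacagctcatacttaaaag
Ifit1 (chr19:34640744-34640870, plus strand): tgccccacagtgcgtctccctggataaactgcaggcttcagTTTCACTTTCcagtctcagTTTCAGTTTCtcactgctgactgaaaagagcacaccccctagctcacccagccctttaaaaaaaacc
Ifit3 (chr19:34583329-34583528, plus strand): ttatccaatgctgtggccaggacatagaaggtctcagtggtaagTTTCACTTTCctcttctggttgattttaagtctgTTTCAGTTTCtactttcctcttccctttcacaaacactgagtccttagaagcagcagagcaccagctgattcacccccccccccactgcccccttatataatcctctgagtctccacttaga
Ifit3b (chr19:34607757-34607956, plus strand): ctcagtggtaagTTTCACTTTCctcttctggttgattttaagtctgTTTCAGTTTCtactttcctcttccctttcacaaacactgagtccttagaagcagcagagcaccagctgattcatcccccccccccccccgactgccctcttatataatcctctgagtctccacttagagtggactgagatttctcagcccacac
Oas1a (chr5:120907526-120907725, minus strand): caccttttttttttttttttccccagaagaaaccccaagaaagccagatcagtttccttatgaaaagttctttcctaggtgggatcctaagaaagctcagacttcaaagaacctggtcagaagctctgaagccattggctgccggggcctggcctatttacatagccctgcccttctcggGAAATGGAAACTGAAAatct
Gbp3 (chr3:142559844-142560025, plus strand): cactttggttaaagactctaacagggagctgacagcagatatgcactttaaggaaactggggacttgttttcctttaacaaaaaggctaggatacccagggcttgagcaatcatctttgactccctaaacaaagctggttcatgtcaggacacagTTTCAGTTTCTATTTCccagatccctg
In Isg15, 3 overlapping matches ran from 78 to 57 bases before the start, and in Oas1a 2 overlapping matches ran from 20 to 5 bases before it. The matches of Ifit1, Ifit3, Ifit3b and Gbp3 lay on the opposite strand. Ifit3 and Ifit3b carried the same pair of matched stretches, 156 to 113 bases before the start in Ifit3 and 188 to 145 bases before it in Ifit3b.

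**Figure D1:**
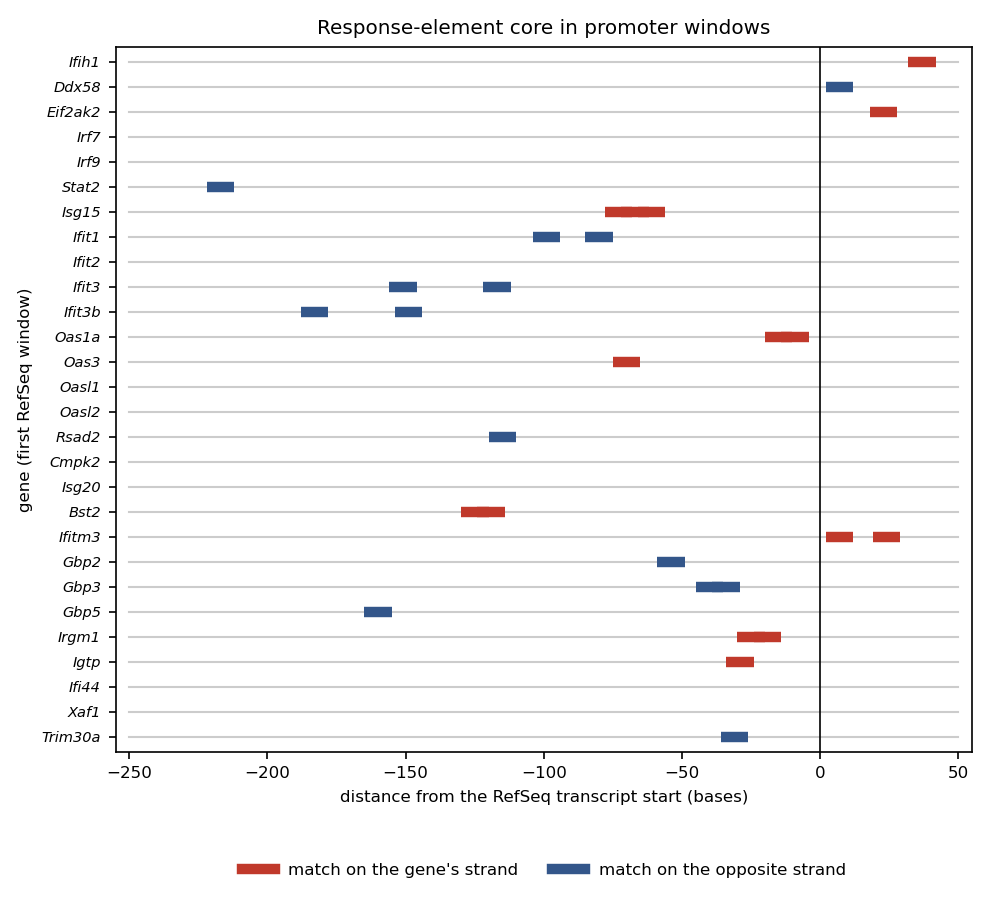
Positions of the ISRE core in the first RefSeq promoter window of the 28 genes with a window, in bases from the transcript start (red, match on the gene's strand; blue, match on the opposite strand). The core is present in 19 of 28 windows, most of them upstream of the start, and 9 rows are empty.

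The main feature of the 39 genes was a split between the libraries labelled mouse 1 and the rest. Their summed level was 11291.5 CPM in GFP- TAM and 12783 CPM in GFP+ TAM from mouse 1. It was 4184 and 5833 CPM in the same groups from mouse 2, and 4561 and 3895 CPM in the naive libraries. Without Ly6e the sums were 7875 and 9851 CPM in these groups from mouse 1 and 3052 and 2889 CPM from mouse 2. The naive libraries then held 3107 and 2761 CPM. In 28 of the 39 genes both mouse 1 libraries were above the other 4, a pattern held by 7.4% of all 15522 genes. Both mouse 1 libraries were above both mouse 2 libraries in 31 genes (14.7% of all genes), and the opposite order was found in 0 (15.1% of all genes). GFP+ TAM from mouse 1 was the highest library for 30 genes (8.6% of all genes), and GFP+ TAM from mouse 2 was the highest for 0 (16.6%) and the lowest for 18 (20.4%). GFP- TAM from mouse 2 was the lowest for 13 (24.8%). Both mouse 1 libraries were above both naive libraries in 34 genes (21.7% of all genes), and both mouse 2 libraries were above both naive ones in 4 (13.7%) and below both in 17 (25.7%). In bulk RNA, fewer cells that express a gene and less RNA per cell cannot be told apart.

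Set against the mean of the naive libraries on the log2 CPM scale with TMM scaling, the median of the 39 genes was 1.56 in GFP- TAM and 1.65 in GFP+ TAM from mouse 1. The same median was -0.17 and -0.10 in the mouse 2 libraries. More than 2-fold above the naive mean were 29 genes in GFP- TAM from mouse 1 (13.6% of all genes) and 32 in GFP+ TAM from mouse 1 (10.7%), while 0 were more than 2-fold below it in either (20% and 15% of all genes). In the mouse 2 libraries the numbers were 9 in GFP- TAM (16.7% of all genes) and 5 in GFP+ TAM (12.4%). More than 2-fold below the naive mean were 6 genes in GFP+ TAM from mouse 2 (19.1% of all genes), and 2 in GFP- TAM from mouse 2 (13.4%), Oas3 and Ifi27l2a. The 6 were Ifit1, Ifit3b, Oas2, Rsad2, Iigp1 and Ifi44.

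**Figure D2:**
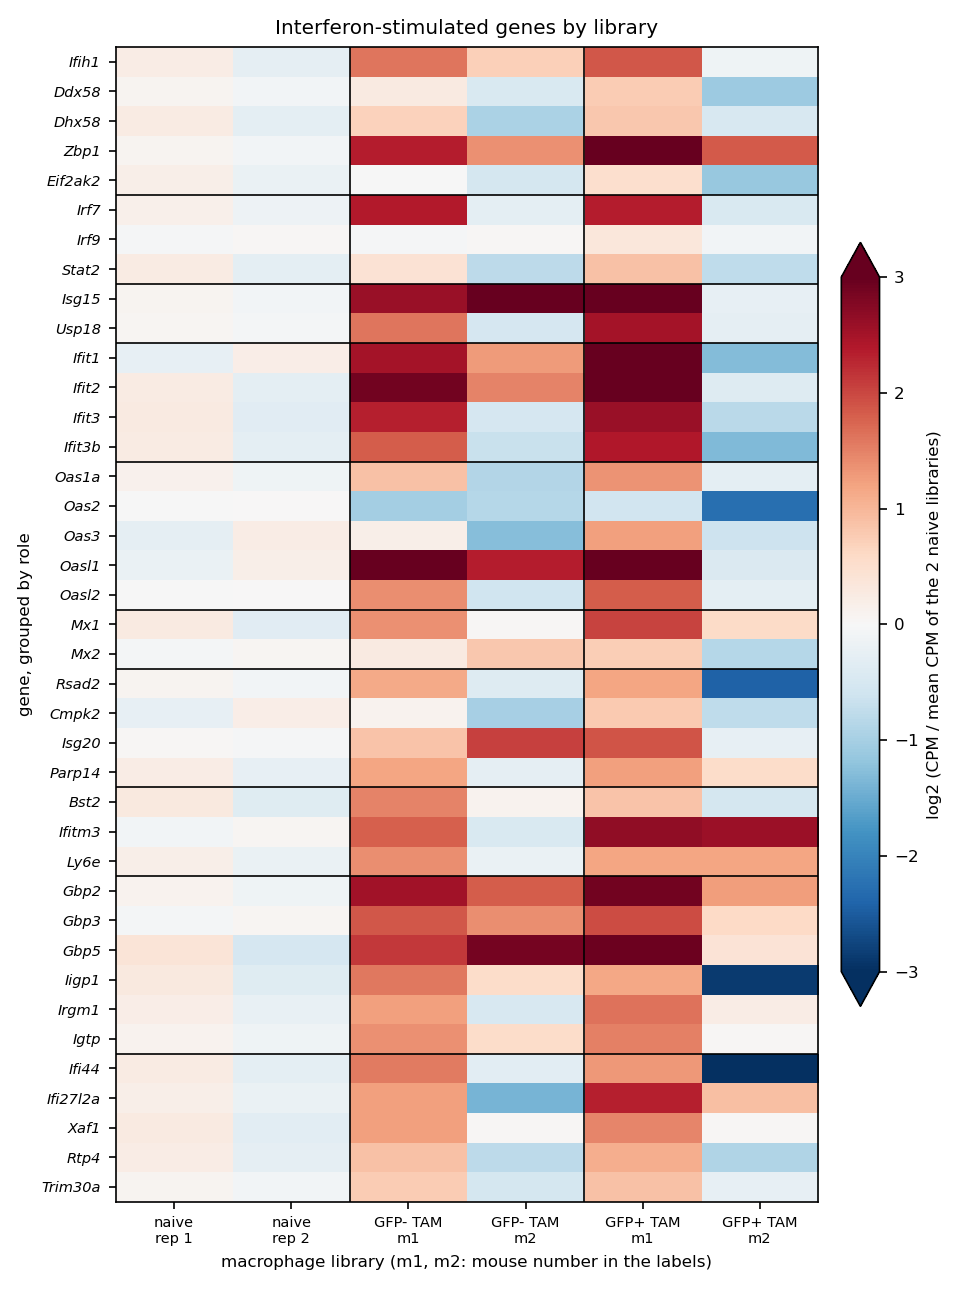
Level of each of the 39 genes in the 6 macrophage libraries as log2 of CPM over the mean CPM of the naive libraries, with genes grouped by role (colour scale from -3 to 3, values beyond it at the end colours). The columns of mouse 1 (m1) are red for most genes in both TAM groups, while those of mouse 2 (m2) hold both red and blue rows.

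Among the transcription factors that drive the response, Irf7, the master amplifier of type I interferon genes (chr7:141262706-141266481 on GRCm38, as for all gene positions here), had the widest range. Irf7 was at 1643 and 256 CPM in GFP- TAM, 1622 and 230.1 CPM in GFP+ TAM and 350.5 and 283 CPM in naive macrophages. Both mouse 1 libraries were high, and both mouse 2 libraries were below both naive ones. The log2 fold change over naive (± SE, as throughout) was 1.75 ± 1.12 in GFP- TAM and 1.68 ± 1.12 in GFP+ TAM, with edgeR adjusted p of 0.521 and 0.512. Irf9 (chr14:55603571-55610030), the DNA-binding part of ISGF3, was flat by comparison, at 171 and 179 CPM, 220.4 and 167 CPM and 170.1 and 181 CPM in the same order of groups. Stat2, its partner, was at 194 and 83.5 CPM, 265 and 84.9 CPM and 170.4 and 118 CPM, again with the mouse 1 libraries on top. Of the 39 genes, 10 share exon bases with another gene, 6 of them with one on the opposite strand, so reads there may belong to either. Among the named ones, Irf7 (with Phrf1), Oasl1, Usp18 and Gbp2 share bases with an opposite-strand gene, and Irf9 (with Rnf31) and Parp14 with one on their own strand.

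The ISG15 system comprises the ubiquitin-like protein ISG15 and USP18, the protease that removes it and that also blocks the receptor. Isg15 (chr4:156199424-156200818) did not follow the mouse 1 pattern. It was at 93.1 and 181 CPM in GFP- TAM, 127 and 12.98 CPM in GFP+ TAM and 16.4 and 14.6 CPM in naive macrophages, so that 3 of the 4 TAM libraries were high and GFP+ TAM from mouse 2 lay below the naive ones. Over naive its log2 fold change was 3.28 ± 1.00 in GFP- TAM (edgeR adjusted p = 0.245, DESeq2 adjusted p = 0.00501) and 2.31 ± 0.96 in GFP+ TAM (edgeR adjusted p = 0.346). Usp18 (chr6:121245906-121270917) was at 124 and 28.96 CPM, 230.4 and 34.1 CPM and 42.5 and 39.1 CPM in these groups, with both mouse 1 libraries above all others and both mouse 2 libraries below the naive ones.

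The IFIT proteins bind foreign RNA and halt its translation, and their genes lie side by side on chromosome 19. Ifit2 (chr19:34550694-34576419) was at 588 and 220.3 CPM in GFP- TAM, 759 and 60.2 CPM in GFP+ TAM and 94.1 and 64.1 CPM in naive macrophages. Ifit1 (chr19:34640871-34650009), which recognises RNA caps, was at 215 and 92.95 CPM, 330.0 and 15.4 CPM and 32.3 and 44.1 CPM. In both genes GFP- TAM did not overlap the naive libraries, while GFP+ TAM did, because its mouse 2 library was lower than the naive ones. Within GFP+ TAM the mouse 1 library was 21.4-fold above mouse 2 for Ifit1 and 12.6-fold for Ifit2. Ifit3 was at 270.0 and 37.5 CPM, 324 and 30.6 CPM and 64.7 and 42.4 CPM, and Ifit3b at 59.7 and 10.6 CPM, 88.9 and 6.79 CPM and 19.9 and 13.9 CPM. Both had the same order of libraries, but their sequences are so alike that the split of reads between them is uncertain. The log2 fold changes of the 4 genes ran from 1.21 to 2.50 in GFP- TAM over naive. In GFP+ TAM over naive they ran from 1.63 to 2.50, and no edgeR adjusted p of either comparison was under 0.36.

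The OAS genes encode enzymes that answer double-stranded RNA by making a signal for RNA decay, and the related Oasl1 is known as a brake on translation of Irf7. Oasl1 (chr5:114923240-114937915) was at 176 and 103 CPM in GFP- TAM, 179 and 14.8 CPM in GFP+ TAM and 17.6 and 22.5 CPM in naive macrophages. Its log2 fold change in GFP- TAM over naive was 2.95 ± 1.05 (edgeR adjusted p = 0.282, DESeq2 adjusted p = 0.0215). Oas2 (chr5:120730333-120749853) had the opposite order, with 33.8 and 37.7 CPM, 46.1 and 14.2 CPM and 67.1 and 69.2 CPM, and was the only one of the 39 genes whose 4 TAM libraries all lay below both naive libraries (16.6% of all genes). Its log2 fold change over naive was -0.79 ± 0.50 in GFP- TAM and -1.04 ± 0.51 in GFP+ TAM, with edgeR adjusted p of 0.519 and 0.398. Oas1a was at 116 and 33.8 CPM, 159 and 51.3 CPM and 67.99 and 57.05 CPM. Oas3 was at 145 and 53.3 CPM, 303 and 84.6 CPM and 107 and 151 CPM, and Oasl2 at 348 and 88.1 CPM, 470.0 and 109 CPM and 131 and 135 CPM. In these 3 genes GFP+ TAM from mouse 1 was the highest library and GFP- TAM from mouse 2 the lowest. Oas1a shares much of its sequence with further Oas1 copies, so its counts carry the same doubt as those of the Ifit3 pair.

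Among the nucleic acid sensors, Zbp1 (chr2:173206612-173218923), a sensor of Z-form RNA and DNA that can start cell death, separated all TAM from naive macrophages. It was at 135 and 67.8 CPM in GFP- TAM, 220.4 and 95.2 CPM in GFP+ TAM and 27.8 and 24.99 CPM in naive macrophages. The log2 fold change over naive was 2.72 ± 0.52 in GFP+ TAM (edgeR adjusted p = 0.129, DESeq2 adjusted p = 5.17e-05) and 2.09 ± 0.51 in GFP- TAM (edgeR adjusted p = 0.224, DESeq2 adjusted p = 0.00453). Ifih1 (chr2:62595798-62646255), which encodes the RNA sensor MDA5, was at 169.6 and 91.4 CPM, 202 and 50.4 CPM and 65.2 and 45.7 CPM, so that GFP+ TAM from mouse 2 fell within the naive range. Ddx58, the gene of RIG-I, was at 176 and 106 CPM, 248 and 68.2 CPM and 153 and 139 CPM. Dhx58, which tunes both sensors, was at 136 and 43.8 CPM, 148 and 60.4 CPM and 101 and 68.7 CPM, and Eif2ak2, the kinase PKR that stops translation, at 34.5 and 24.3 CPM, 49.1 and 15.9 CPM and 39.4 and 30.2 CPM. In Ddx58, Dhx58 and Eif2ak2 both mouse 2 libraries were below both naive ones, and their log2 fold changes over naive lay between -0.10 and 0.44.

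The guanylate-binding proteins are GTPases that assemble on pathogen membranes and respond strongly to interferon gamma. Those of the set, Gbp2, Gbp3 and Gbp5, were the other genes higher in every TAM library than in naive macrophages. Outside the set, and named after their values were seen, Gbp4 also held this order, while Gbp6, Gbp7, Gbp8 and Gbp9 did not. Gbp2 (chr3:142620602-142638008) was at 235 and 143 CPM in GFP- TAM, 304 and 96.9 CPM in GFP+ TAM and 44.03 and 37.5 CPM in naive macrophages. Gbp3 (chr3:142560026-142573209) was at 160.1 and 115 CPM, 172 and 66.7 CPM and 41.9 and 45.97 CPM. Gbp5, singled out after its values were seen, was at 40.3 and 67.4 CPM, 71.2 and 12.2 CPM and 11.99 and 6.47 CPM. With Zbp1, these 3 were the only genes of the set with all 4 TAM libraries above both naive libraries (8.21% of all genes), although for Gbp5 the gap between GFP+ TAM from mouse 2 and the higher naive library was small. The log2 fold change over naive of Gbp2 was 2.44 ± 0.58 in GFP+ TAM and 2.36 ± 0.58 in GFP- TAM, with edgeR adjusted p of 0.18 and 0.224, and DESeq2 adjusted p of 0.00145 and 0.00245. For Gbp3 it was 1.58 ± 0.46 and 1.79 ± 0.47, with edgeR adjusted p of 0.236 and 0.229. The immunity-related GTPases Irgm1, Igtp and Iigp1, which act on pathogen vacuoles, followed the mouse 1 pattern. Irgm1 was at 264 and 81.04 CPM, 345 and 130.0 CPM and 129 and 95.9 CPM in GFP- TAM, GFP+ TAM and naive macrophages, and Igtp at 168 and 94.02 CPM, 185 and 66.1 CPM and 69.9 and 58.99 CPM. Among the 3, Iigp1, chosen after its values were seen, was at 173 and 83.7 CPM, 128 and 7.83 CPM and 70.2 and 44.9 CPM, with GFP+ TAM from mouse 2 far below all others.

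Of the 3 membrane proteins, 2 were alike in both libraries of GFP+ TAM. Ifitm3 (chr7:141009586-141010770), which hinders fusion of viruses with the endosome, was at 436 and 91.6 CPM in GFP- TAM, 791 and 746 CPM in GFP+ TAM and 119 and 131 CPM in naive macrophages. It was the only one of the 39 genes with both libraries of GFP+ TAM above both of GFP- TAM (24.4% of all genes), and 0 of the 39 had both below both (22.3%). Its log2 fold change was 1.54 ± 0.70 in GFP+ TAM over GFP- TAM (edgeR adjusted p = 0.326, DESeq2 adjusted p = 0.149) and 2.77 ± 0.73 in GFP+ TAM over naive (edgeR adjusted p = 0.214, DESeq2 adjusted p = 0.00172). Over GFP- TAM the value for Ifitm3 was 3.13 without GFP- TAM from mouse 1 and 0.78 without GFP- TAM from mouse 2. Ly6e (chr15:74955051-74959905), a surface protein anchored by a lipid, was at 3416 and 1133 CPM, 2932 and 2944 CPM and 1454 and 1134 CPM, with both libraries of GFP+ TAM alike. Its log2 fold change over naive was 1.34 ± 0.61 in GFP+ TAM and 0.97 ± 0.60 in GFP- TAM, with edgeR adjusted p of 0.375 and 0.508. Bst2, or tetherin, which holds budding virus at the cell surface, was at 153 and 58.6 CPM, 97.9 and 38.02 CPM and 66.7 and 42.3 CPM and followed the mouse 1 pattern. Per kilobase of exon, Ly6e (342 CPM per kb) and Ifitm3 (185 CPM per kb) had the highest mean levels of the set in naive macrophages, and Gbp5 (1.39 CPM per kb) and Mx2 (1.57 CPM per kb) the lowest.

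The Mx GTPases, which trap viral nucleoproteins, were low. Mx1 (chr16:97447035-97462907) was at 33.8 and 13.3 CPM in GFP- TAM, 52.6 and 19.4 CPM in GFP+ TAM and 15.7 and 10.3 CPM in naive macrophages, and Mx2 (chr16:97535308-97560900) at 6.82 and 9.89 CPM, 9.46 and 3.13 CPM and 5.44 and 5.92 CPM. GFP+ TAM did not overlap naive for Mx1, with a log2 fold change of 1.61 ± 0.64 (edgeR adjusted p = 0.332), and GFP- TAM did not overlap naive for Mx2. B6 mice are known to carry defective Mx genes, so these are transcript levels only. Of the enzymes, Isg20 (chr7:78913424-78920396), an RNA exonuclease, was at 31.4 and 71.9 CPM, 64.96 and 14.7 CPM and 17.9 and 16.9 CPM, and was the only one of the 39 genes more than 2-fold higher in mouse 2 than in mouse 1 within GFP- TAM (22.8% of all genes). Parp14 (chr16:35832874-35871544), an ADP-ribosyltransferase, was at 104 and 37.5 CPM, 107 and 66.95 CPM and 52.7 and 38.01 CPM. Rsad2, the gene of viperin, was at 333 and 116 CPM, 345 and 28.3 CPM and 159.9 and 143 CPM, and its neighbour Cmpk2, a nucleotide kinase, at 226 and 106 CPM, 364 and 123 CPM and 178 and 244 CPM. Both mouse 2 libraries were below both naive ones for this pair.

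Of the remaining 5 genes, Ifi27l2a (chr12:103442167-103443680), whose small product sits in intracellular membranes, was at 84.8 and 13.7 CPM in GFP- TAM, 179.9 and 67.6 CPM in GFP+ TAM and 40.6 and 31.1 CPM in naive macrophages. Xaf1 (chr11:72301629-72313733), which binds an inhibitor of apoptosis, was at 55.6 and 24.4 CPM, 65.7 and 24.5 CPM and 28.6 and 19.00 CPM. GFP+ TAM lay above naive without overlap for Ifi27l2a and overlapped it for Xaf1. For Ifi27l2a the log2 fold change was 1.31 ± 0.86 in GFP+ TAM over GFP- TAM and 1.93 ± 0.88 in GFP+ TAM over naive, with edgeR adjusted p of 0.48 and 0.377. Over GFP- TAM it was 3.23 without GFP- TAM from mouse 1 and 0.50 without either GFP- TAM from mouse 2 or GFP+ TAM from mouse 1. Rtp4, a chaperone of receptors, was at 230.3 and 72.7 CPM, 269 and 66.9 CPM and 148 and 104 CPM, and Trim30a, a negative regulator of inflammatory signalling, at 205 and 83.3 CPM, 222 and 102 CPM and 127 and 113 CPM. Rtp4, Trim30a and Ifi44 followed the mouse 1 pattern too. Ifi44, chosen after its values were seen, had the widest gap within GFP+ TAM, with 89.2 CPM in mouse 1 and 2.52 CPM in mouse 2, a ratio of 35.5.

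Between groups of 2 libraries, none of the 39 genes had an adjusted p under 0.05 by edgeR's quasi-likelihood test with Benjamini-Hochberg adjustment in any comparison, where 0% of all genes were called in GFP+ TAM over GFP- TAM, 0.219% in GFP+ TAM over naive and 0% in GFP- TAM over naive. At an unadjusted p under 0.05 the edgeR counts were 0, 6 and 6 of 39, all higher in TAM, against 7.09%, 7.11% and 7.78% of all genes in that direction (17.1%, 14.6% and 15.2% in either). DESeq2 called 0, 5 and 6, against 9.51%, 7.67% and 7.97% of all genes, and limma-voom called 0 in each comparison, as of all genes. The 5 DESeq2 calls in GFP+ TAM over naive were Zbp1, Ifitm3, Gbp2, Gbp3 and Gbp5, to which Mx1 was added at edgeR's unadjusted threshold, and the 6 in GFP- TAM over naive were Zbp1, Isg15, Oasl1, Gbp2, Gbp3 and Gbp5, the same 6 as at that threshold. Both comparisons with naive share the naive libraries.

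The log2 fold change was positive for 24 of 39 genes in GFP+ TAM over GFP- TAM, with a median of 0.16 (-0.00 over all genes tested) and a range from -0.97 to 1.54. Over naive it was positive for 38 genes in GFP+ TAM, with a median of 1.22 (0.00 over all genes), and for 35 genes in GFP- TAM, with a median of 1.01 (0.06 over all genes). These medians rested on mouse 1. Without the mouse 1 library of GFP+ TAM, the median over naive in GFP+ TAM was -0.09, and without the mouse 1 library of GFP- TAM, the median over naive in GFP- TAM was -0.23. Without the respective mouse 2 library the medians were 1.63 and 1.55. Between both TAM groups the median was -0.98 without GFP+ TAM from mouse 1, -0.29 without GFP- TAM from mouse 2, 0.94 without GFP- TAM from mouse 1 and 0.69 without GFP+ TAM from mouse 2. In these fits the lone library of a group was assumed to vary like the other groups.

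Counted by library, both libraries of GFP+ TAM were above both naive libraries for 10 genes (23% of all genes) and below both for 1, Oas2 (36.7%). Both libraries of GFP- TAM were above both naive libraries for 13 genes (16.6%) and below both for 1, again Oas2 (28.9%). On TMM-scaled values the first count became 12, with Irf9 and Igtp added, and the other 14, with Irf9 added.

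**Figure D3:**
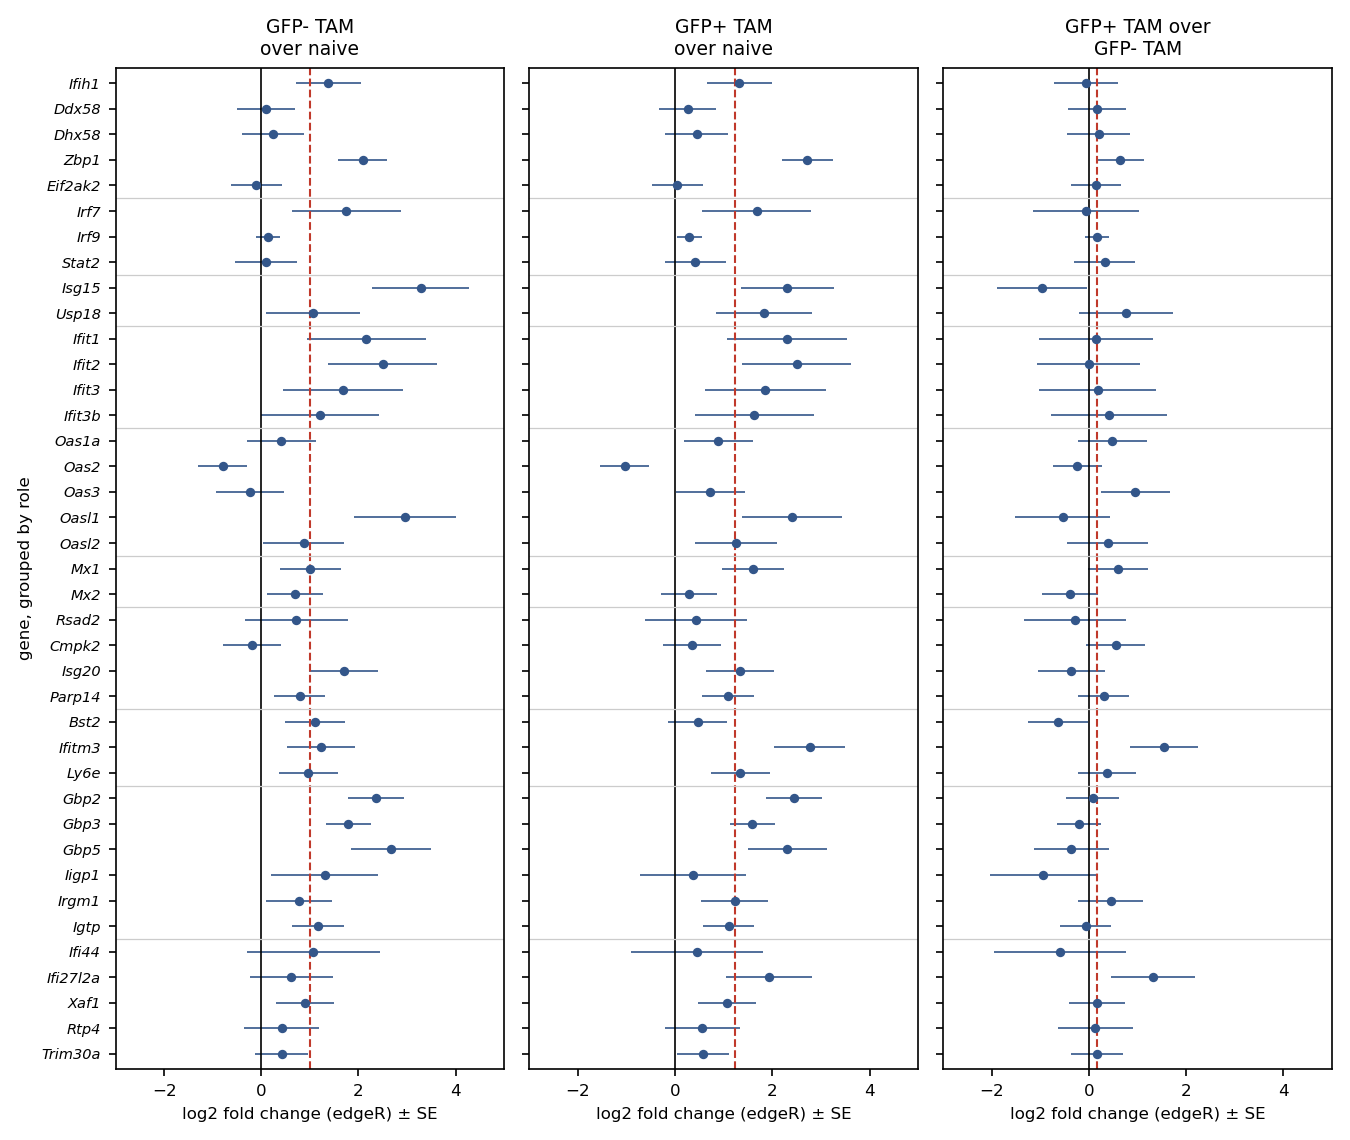
edgeR log2 fold change with its standard error (bars) for the 39 genes in the 3 comparisons of macrophage groups, with a red dashed line at the median of the 39 genes. The medians are 1.01, 1.22 and 0.16 from left to right, and Oas2 lies left of 0 in both comparisons with naive.

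Within each TAM group the gap between the libraries was larger for these genes than for most others. In GFP+ TAM, mouse 2 was more than 2-fold below mouse 1 for 35 of the 39 genes (10.6% of all genes), with a median log2 difference of -1.58 (0.01 over all genes) and a range from -5.05 for Ifi44 to 0.07 for Ly6e. None was more than 2-fold higher in mouse 2 there (7.05% of all genes). In GFP- TAM it was more than 2-fold lower for 26 genes (14.1% of all genes), with a median of -1.36 and a range from -2.90 for Ifit3 to 1.14 for Isg20. Between the naive libraries 0 genes differed by more than 2-fold in either direction (8.31% of all genes lower, 5.54% higher), and the median was -0.26. By role, the IFIT genes had the widest gaps in both TAM groups, with a median log2 difference of -3.61 in GFP+ TAM and -2.01 in GFP- TAM. The membrane proteins had a median of -0.02 in GFP+ TAM and -1.65 in GFP- TAM. Isg15, Isg20, Gbp5, Mx2, Oas2 and Irf9 were higher in mouse 2 than in mouse 1 within GFP- TAM, and the remaining 33 genes were lower.

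**Figure D4:**
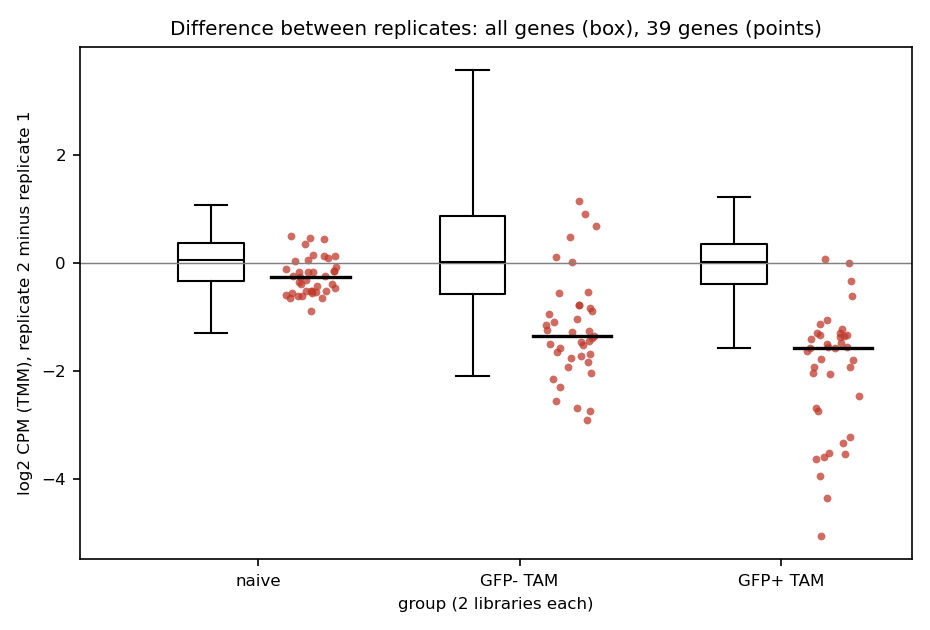
Difference between replicate 2 and replicate 1 (mouse 2 and mouse 1 in TAM) in log2 CPM with TMM scaling for all 15522 genes tested (boxes with quartiles, whiskers from the 5th to the 95th percentile) and for the 39 genes (points, line at the median). The points of both TAM groups lie mostly below -1, while those of naive macrophages lie between -0.89 and 0.49.

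Of 47 genes that make, sense or relay interferon, 46 were in the table and 37 were tested, with 0 called by edgeR in any comparison. Both mouse 1 libraries were above the other 4 in 9 of the 37 (7.4% of all genes). At an edgeR unadjusted p under 0.05, 5 were higher and 2 lower in GFP+ over GFP- TAM (7.09% and 10% of all genes), 12 higher and 3 lower in GFP+ TAM over naive (7.11% and 7.51%), and 5 higher and 0 lower in GFP- TAM over naive (7.78% and 7.39%). DESeq2 called 2 higher and 1 lower (2.67% and 6.84% of all genes), 9 higher and 0 lower (2.91% and 4.76%), and 2 higher and 0 lower (4.52% and 3.44%) in the same order. Among the ligands, Ifnb1, the gene of interferon beta, was chosen after its values were seen. It was at 21.4 CPM (664 counts) in GFP- TAM from mouse 2 and at most 0.0967 CPM (4 counts) in the other 5 libraries. Ifna2, Ifna4 and Ifna5, also chosen afterwards, were at 1.35, 2.64 and 0.805 CPM in that library and had 0 counts in the other 5, where 0 counts allow up to 0.104 CPM. In that library, 9 of the 39 genes were more than 2-fold above the naive mean (16.7% of all genes). It was the highest library for 3 of the 39, Isg15, Mx2 and Isg20 (24.3% of all genes). Whether these transcripts relate to the levels of the 39 genes was not tested. Ifng, the gene of interferon gamma, was at 1.35 and 1.93 CPM in GFP- TAM, 3.60 and 0.926 CPM in GFP+ TAM and 0.277 and 0.519 CPM in naive macrophages.

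Of the signalling genes, Socs3, an inhibitor of cytokine receptor kinases, had the smallest p over naive. It was at 123 and 272 CPM in GFP- TAM, 162 and 567 CPM in GFP+ TAM and 12.5 and 15.3 CPM in naive macrophages, with a log2 fold change of 4.89 ± 0.77 in GFP+ TAM over naive (edgeR adjusted p = 0.0902) and 3.96 ± 0.74 in GFP- TAM over naive (edgeR adjusted p = 0.219). All 4 TAM libraries were above naive, and mouse 2 was the higher one in both TAM groups. Irf5, a factor of inflammatory macrophages, was at 399.6 and 284 CPM, 514 and 858 CPM and 272 and 196 CPM. Samhd1, which depletes nucleotides, was at 409.6 and 357 CPM, 809 and 974 CPM and 314 and 404 CPM, with an edgeR adjusted p of 0.196 in GFP+ TAM over GFP- TAM.

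A further list held 80 interferon-stimulated genes outside the set, of which 79 were tested. The mouse 1 pattern was found in 48 of the 79 (7.4% of all genes). None of the 79 was called by edgeR in any comparison, where 0%, 0.219% and 0% of all genes were. At an edgeR unadjusted p under 0.05, 3 were higher and 1 lower in GFP+ over GFP- TAM (7.09% and 10% of all genes). In GFP+ TAM over naive 17 were higher and 1 lower (7.11% and 7.51%). In GFP- TAM over naive 12 were higher and 2 lower (7.78% and 7.39%). In the same order, DESeq2 called 2 higher and 1 lower (2.67% and 6.84% of all genes) and 11 higher and 1 lower (2.91% and 4.76%). In the last comparison it called 9 higher and 0 lower (4.52% and 3.44%). Cd274, the gene of PD-L1, was at 217 and 774 CPM in GFP- TAM, 189 and 251 CPM in GFP+ TAM and 34.4 and 26.4 CPM in naive macrophages. The chemokine gene Cxcl10 was at 157 and 227 CPM, 200.2 and 17.1 CPM and 13.95 and 9.0004 CPM, and Ccl5 at 46.7 and 20.8 CPM, 65.3 and 10.8 CPM and 3.29 and 3.29 CPM. All 4 TAM libraries were above both naive ones for Cd274, Cxcl10 and Ccl5 (8.21% of all genes). These genes were named for their small p over naive, so this order partly follows from the choice. Ifitm2, a paralog of Ifitm3, was at 144 and 75.9 CPM, 247 and 379.8 CPM and 69.7 and 82.1 CPM. Gbp8 was lower in GFP+ TAM than elsewhere, at 27.5 and 7.17 CPM against 88.8 and 104 CPM in GFP- TAM and 124 and 77.5 CPM in naive macrophages (edgeR adjusted p = 0.186 and 0.209).

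Markers of other cells also varied between these libraries. The summed level of 8 T and NK cell markers was 131 and 220.4 CPM in TAM of mouse 1 (GFP- and GFP+). It was 42.3 and 81.1 CPM in TAM of mouse 2 and 63.1 and 127 CPM in naive macrophages. None of the 8 was at 0, and 3 of the 8 held the mouse 1 pattern (7.4% of all genes). Markers of plasmacytoid dendritic cells, which are strong interferon producers, summed to 377 CPM in GFP- TAM from mouse 2 and to 111 to 179 CPM in the other 5 libraries, with none of the 8 at 0. Of the 377 CPM, 333 came from Tcf4 and Ly6d, which were also above 100 CPM in both plasma cell libraries, and the other 6 markers summed to 43.6 CPM there against 57.6 CPM in GFP- TAM from mouse 1 and 18.7 to 39.7 CPM in the remaining 4. Plasma cell markers summed to 5588 CPM in GFP- TAM from mouse 2 and to 615 to 901 CPM elsewhere. Monocyte markers summed to 2157 and 2165 CPM in GFP- TAM, 7322 and 3785 CPM in GFP+ TAM and 4049 and 6888 CPM in naive macrophages. Neutrophil markers summed to 9252 to 18549 CPM in GFP- TAM, 29175 to 51527 CPM in GFP+ TAM and 50069 to 78242 CPM in naive macrophages. The part of any of these cells in the levels of the 39 genes was not tested.

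The plasma cell libraries held most of the 39 genes at lower levels than the macrophages did, as they did most genes. The median level of the 39 genes was 3.34 and 3.05 CPM in plasma cell libraries 1 and 2, and 34 genes were below their lowest macrophage level in both (68.8% of the 15326 tested genes found once in each table). Immunoglobulin genes took 67.3% and 70.4% of the counts there, and with these left out of every total the medians were 10.2 and 10.3 CPM, and 30 genes were below all 6 macrophage libraries (30.6% of all genes). Under 5 CPM in both libraries on the whole total were 20 genes (52.7% of all genes), among them the 4 IFIT genes at 0.16 to 1.41 CPM and Mx2 at 0.0122 and 0.104 CPM. Ly6e was the highest, at 1603 and 1592 CPM, followed by Isg20 at 60.7 and 110.4 CPM and Bst2 at 61.2 and 108 CPM. With immunoglobulins left out these 3 were above all 6 macrophage libraries (12.6% of all genes). Irf7 was at 21.2 and 11.5 CPM and Zbp1 at 39.2 and 39.4 CPM. The plasma cell table was deposited apart from the macrophage table, so no test was made between them.

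**Figure D5:**
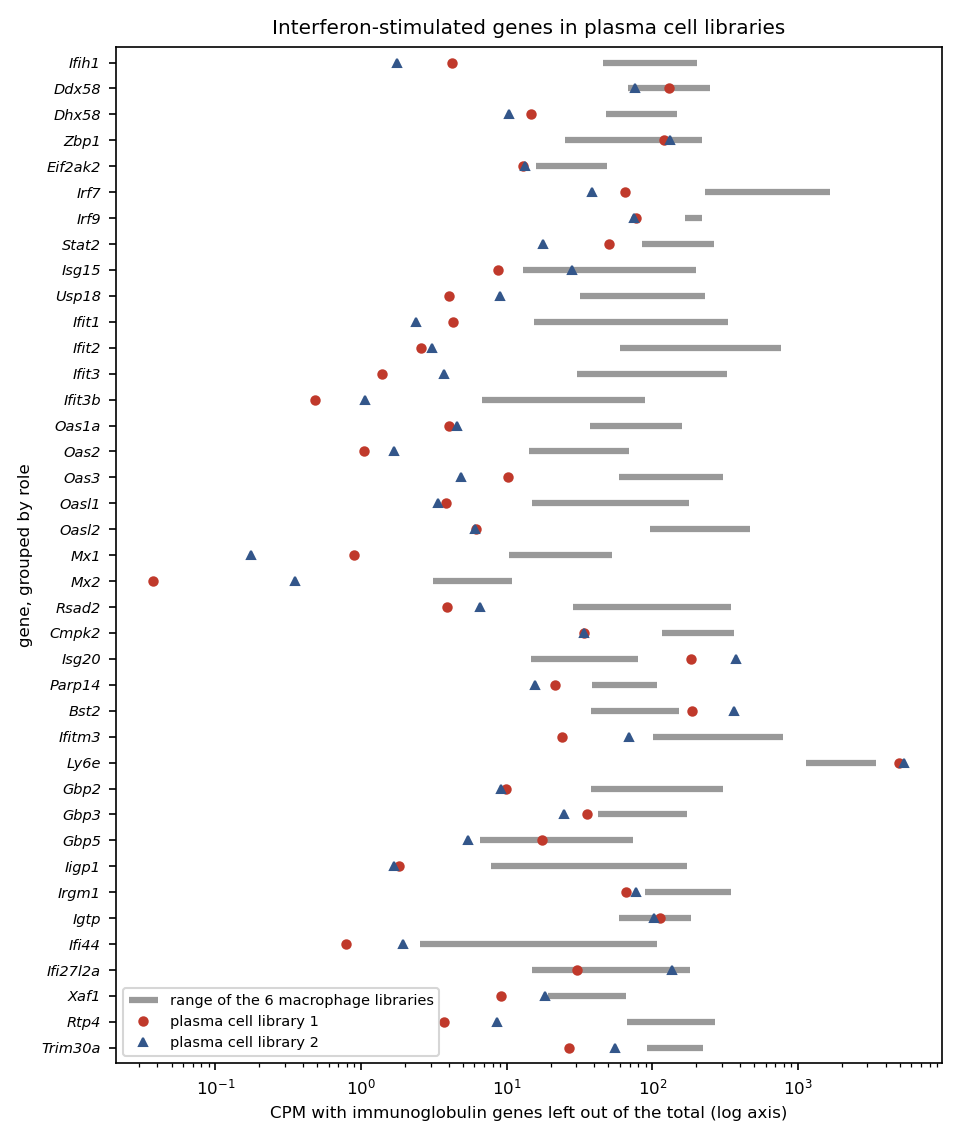
CPM of the 39 genes in the 2 plasma cell libraries (red circles and blue triangles) and the range of the 6 macrophage libraries (grey bars), with immunoglobulin genes left out of all totals, on a log axis. The plasma cell points lie left of the bar for 30 genes and right of it for Ly6e, Isg20 and Bst2.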

How the data were processed

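Gene expression was measured by RNA sequencing of SMART-Seq v4 libraries from 6 sorted macrophage samples (2 per group) and 2 plasma cell samples. The deposited values are raw read counts per gene, in 1 table for macrophages and 1 for plasma cells. Per the submitters' processing notes, STAR, featureCounts and DESeq2 1.26 were among the tools and mm10 (GRCm38) was the build. For the strand setting, annotation and other counting parameters, nothing was given in the sources used here, and the kit does not mark strand. Macrophage totals were 28887725 to 46873056 counts, and plasma cell totals were 81792139 and 38343783. Where a gene had no count, the upper limit was taken as 3 counts (0.064 to 0.104 CPM in the macrophage libraries), which covers counting error only.

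From these counts, CPM were computed on the library total, and log2 values with TMM scaling (factors 0.938 to 1.07) and a prior count of 2. Identifiers were paired with GENCODE M21 symbols for 47224 of 47643 genes, and unmatched identifiers held at most 0.117% of a library. edgeR 4.0.16 fitted the quasi-likelihood test with a group term to all 6 macrophage libraries (filterByExpr, minimum count 10 and minimum total 15, 15522 genes, 3 residual degrees of freedom), with Benjamini-Hochberg adjustment over all genes and a threshold of 0.05. The alternatives were DESeq2 1.42.0, limma 3.58.1 with voom, no filter, a fit on the compared groups, bias-adjusted quasi-dispersions, a replicate block and leaving out each library. The SE of an edgeR log2 fold change, in text and figure, was its absolute value divided by the square root of the F statistic of the test. The scripts were tested on simulated data. Orders of libraries and groups that do not overlap use CPM on the library total. The genes named with position were those with the 2 smallest p in each role over the 3 comparisons, families of up to 5 genes were given whole, and of the pathway and further lists those with the smallest p were given. The 39 genes and all lists were chosen with earlier results of these data known.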

Additional observations from a re-analysis of the deposited data

How the results depend on the processing

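The count of called genes among the 39 differed between tools. In the order GFP+ over GFP- TAM, GFP+ TAM over naive and GFP- TAM over naive, the edgeR counts were 0, 0 and 0. With DESeq2 they were 0, 5 and 6 (1555, 1180 and 1264 of all genes), and with no filter on low counts 2, 16 and 12 (1871, 1437 and 1548 of 25982 genes). A fit on the compared groups alone called 2 in GFP+ TAM over naive, Zbp1 and Ifitm3 (664 of 14858 genes tested). Bias-adjusted quasi-dispersions called 0 of the 39 in each comparison (22, 56 and 0 of all genes). Leaving out the immunoglobulin genes moved the plasma cell medians from 3.34 and 3.05 to 10.2 and 10.3 CPM. With limma-voom the log2 fold change in GFP+ over GFP- TAM was -0.96 for Ifit1 and -0.0769 for Gbp2, both reversed.

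The TAM groups share the numbers mouse 1 and mouse 2. The differences between mouse 2 and mouse 1 correlated over 15522 genes with r = 0.152, but both mouse 2 libraries differed in sex-linked transcripts, so the numbers were not taken as pairs. A replicate block called 2 genes in GFP+ TAM over naive, Zbp1 and Gbp2 (187 of all genes), and gave log2 fold changes in GFP+ over GFP- TAM of -0.96 for Ifit1 and -0.0772 for Gbp2.

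Each library was also left out in turn, with a lone library assumed to vary like the other groups. Only log2 fold changes are given for these fits, because a group then rests on a lone library. In GFP+ over GFP- TAM they ran from 0.78 to 3.13 for Ifitm3 and from 0.50 to 3.23 for Ifi27l2a. The median of the set ran from -0.98 to 0.94 in GFP+ over GFP- TAM. This median ran from -0.0898 to 1.63 in GFP+ TAM over naive and from -0.23 to 1.55 in GFP- TAM over naive. Log2 fold changes of 17 named genes changed sign in GFP+ over GFP- TAM, with ranges of Zbp1 -0.033 to 1.27, Ifih1 -1.32 to 0.60, Irf7 -2.01 to 1.90, Irf9 -0.00055 to 0.32, Usp18 -1.13 to 2.24, Ifit2 -2.70 to 0.94, Ifit1 -3.27 to 1.07, Oasl1 -3.18 to 0.34, Oas2 -1.26 to 0.36, Mx1 -0.23 to 1.48, Mx2 -1.34 to 0.18, Isg20 -1.73 to 0.34, Parp14 -0.29 to 1.27, Ly6e -0.25 to 1.44, Gbp2 -0.91 to 0.66, Gbp3 -0.98 to 0.30 and Xaf1 -0.66 to 0.93. In GFP+ TAM over naive 8 did so, with ranges of Irf7 -0.26 to 2.47, Isg15 -0.056 to 3.15, Usp18 -0.060 to 2.61, Ifit2 -0.20 to 3.37, Ifit1 -1.11 to 3.23, Oasl1 -0.24 to 3.28, Mx2 -0.66 to 0.85 and Isg20 -0.044 to 2.01. In GFP- TAM over naive 6 did so, with ranges of Irf7 -0.23 to 2.54, Usp18 -0.42 to 1.78, Parp14 -0.21 to 1.35, Ifitm3 -0.37 to 1.97, Ly6e -0.12 to 1.56 and Ifi27l2a -1.32 to 1.40. The causes were not tested.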
